A study of Capra hircus with 9 samples.

Results

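Leukocyte integrins are the adhesion receptors with which white blood cells hold on to vessel walls, to each other and to tissue cells, and the genes described here encode the main ones together with a ligand of theirs. The 8 genes were *ITGB2*, *ITGAL*, *ITGAM*, *ITGAX*, *ITGB7*, *ITGAE*, *ITGA4* and *ICAM1*, chosen by name out of 21222 genes to which the transcript table was summed, and 19 transcript rows belonged to them. All libraries came from the submandibular gland, a salivary gland under the jaw, of healthy female Lubo goats aged 1 month (group A), 12 months (group B) or 24 months (group C), with 3 goats and 3 libraries per age, numbered A1 to A3, B1 to B3 and C1 to C3. Age was the difference that the design names between the groups. Goats of every group went without food and then water for a time and were put under xylazine anaesthesia before slaughter. Ribosomal RNA was removed before the strand-marked libraries were made, and the summed expected counts per library ran from 11546808 to 24901065.

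An integrin is a pair of an alpha and a beta chain, and neither chain reaches the cell surface well without the other. The beta-2 chain (*ITGB2*) pairs with alpha-L, alpha-M, alpha-X or alpha-D and is largely restricted to blood-derived cells. The beta-7 chain (*ITGB7*) pairs with alpha-4 or with alpha-E, and alpha-4 also pairs with the widely expressed beta-1 chain. Beta-2 integrins bind the intercellular adhesion molecules, alpha-4 beta-7 binds the mucosal vessel addressin MADCAM1, and alpha-E beta-7 binds E-cadherin on epithelium. Chemokine signals met on the vessel wall switch the integrins of a passing leukocyte to their binding state.

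The labelled tissue was checked against marker genes before the groups were compared. Levels are given as CPM, a gene's counts relative to the library's total after scaling by trimmed mean of M-values (TMM) factors. CPM says nothing about the order of 2 different genes because transcript lengths were not used. In A2, the acinar water channel *AQP5* stood at 0.486 CPM, against 217 in A1, 127 in A3 and 469 to 1043 in the 6 older libraries. The acinar transcription factor *BHLHA15* was at 0.520 CPM in A2 and at 84.5 or more in every other library, so these 2 acinar markers were close to absent from A2. Of the 10 salivary epithelium markers listed, *SLC12A2*, *KRT7*, *EPCAM*, *ELF5* and *CFTR* were also lowest in A2. *ELF5* and *CFTR* were close to absent there too, at 5.39 and 4.04 expected counts, against 579 and 216 in A1 and 282 and 169 in A3. The keratins *KRT8* and *KRT19* were instead highest in A2 among the young libraries, and *KRT18* lay between A1 and A3. *KRT8* had 3752, 5879 and 2495 expected counts in A1, A2 and A3. Genes of developing T cells were high in all 3 libraries of group A, with *RAG1*, an enzyme of antigen receptor gene assembly, at 1516, 4170 and 644 CPM and at most 0.818 CPM in older goats. Summed over 11 T cell and thymocyte markers, the level was 3031, 10445 and 1523 CPM in A1, A2 and A3 and 11.7 to 28.8 CPM in groups B and C. *FOXN1*, the regulator of thymic epithelium, reached 15.7, 78.9 and 5.49 CPM in group A and at most 0.103 CPM later. A2 therefore stands apart, and results are given below with it and without it. Leaving it out does not remove *RAG1* and *FOXN1*, which were above every older library in A1 and A3 as well. In whole tissue, fewer cells of a type and less RNA per cell cannot be told apart.

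Most of the leukocyte integrin genes fell between 1 month and the older ages, *ITGAE* by the most and *ICAM1* by the least of those called at 12 months. Genes were tested with edgeR's quasi-likelihood test with Benjamini-Hochberg adjustment over all genes, and called at an adjusted p under 0.05 with a log2 fold change beyond 2 in size. From 1 to 12 months, 7 of 8 members were called lower, as were 9.73% of the 14702 genes tested. The members' median log2 fold change was -3.49 beside -0.02 over all genes. From 1 to 24 months, 6 of 8 members were called lower, as were 9.46% of 14760 genes, and the members' median was -3.54 beside -0.01. No member was called higher, against 2.22% and 4.39% of all genes. Both comparisons use the same 3 young libraries. Without A2, 8 of 8 members were called at 12 months and 7 of 8 at 24 months, where 10.5% and 10.3% of all genes were called lower. Neither count was lower without that library. The calls at 12 months needed all 3 libraries of group B, since leaving out any 1 of them left 0 members called and between 143 and 149 genes called lower in all (0.946%, 0.986% and 0.957% without B1, B2 and B3), with adjusted p from 0.0544 to 0.194 and log2 fold changes of the members still between -7.09 and -2.03. At 24 months the count was 2 without C3, 4 without C2 and 5 without C1, where 2.0%, 3.35% and 6.18% of genes were called lower. The Wald test of DESeq2 called 8 members at 12 months and 6 at 24 months (10.5% and 10.4% of genes lower), as did the exact test of edgeR (11.4% and 11.3%). With transcripts tested singly, 4 and 3 members had a called transcript (2.35% and 1.26% of transcripts lower).

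**Figure D1:**
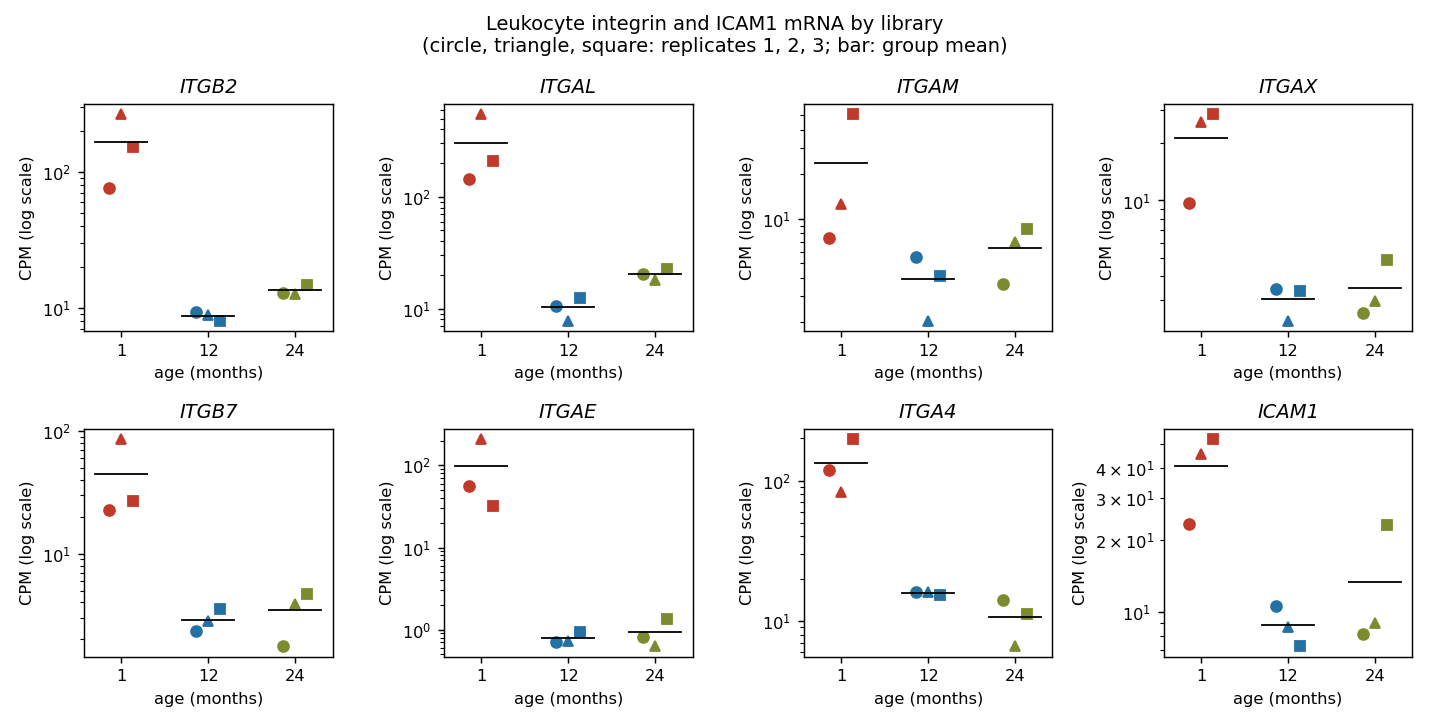
Level of each member in every library, in CPM on a log axis, against age in months. Points are single goats and bars are the means of 3. The 1-month libraries lie above all older libraries in every panel but ITGAM, where A1 at 7.49 CPM lies below C3 at 8.49 CPM.

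*ITGB2* encodes the beta-2 chain that all beta-2 integrins share. It was measured at 75.4, 266 and 153 CPM in A1, A2 and A3. At 12 months it stood at 9.29, 8.78 and 7.96 CPM, and at 24 months at 12.9, 12.5 and 14.8 CPM. The young libraries differed from each other by 3.53 times, yet the lowest of them was several times above any older library. The log2 fold change was -4.23 ± 0.541 (SE, n = 3 per group) at 12 months and -3.54 ± 0.552 at 24 months, with adjusted p of 0.00770 and 0.00669 by edgeR. Without A2 these values were -3.73 and -2.99, both called.

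*ITGAL* encodes alpha-L, the partner of beta-2 on lymphocytes and the main receptor for ICAM1. The young goats had 144, 550 and 210 CPM, the 12-month goats 10.5, 7.74 and 12.5 CPM and the 24-month goats 20.2, 18.1 and 22.7 CPM. *ITGAL* followed *ITGB2* across the 9 libraries, with A2 far above the rest and the 24-month libraries all above the 12-month ones. Its log2 fold changes were -4.87 ± 0.651 and -3.82 ± 0.620 (SE, n = 3 per group), with edgeR adjusted p of 0.00840 and 0.00728. Without A2 they were -4.12 and -3.02, both called.

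*ITGAM* encodes alpha-M, found on neutrophils and macrophages, and it differed in pattern from the other beta-2 partners. Libraries A1, A2 and A3 held 7.49, 12.6 and 51.1 CPM, B1 to B3 held 5.56, 2.04 and 4.14 CPM, and C1 to C3 held 3.62, 7.04 and 8.49 CPM. The high value lay in A3 alone, and A1 fell inside the range of the 24-month goats. The log2 fold change of -2.54 ± 0.783 (SE, n = 3 per group) at 12 months missed the threshold, with an edgeR adjusted p of 0.0628, and so did the value of -1.76 ± 0.733 at 24 months, with 0.126. These calls turn on single young libraries. Without A3 the log2 fold changes were -1.37 and -0.59, and without A2 they were -2.92 and -2.09 with edgeR adjusted p of 0.0268 and 0.0430, both then called. Without A1 the gene was also called at 12 months, at -3.04, but not at 24 months.

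*ITGAX* encodes alpha-X, a marker of dendritic cells and many macrophages. At 1 month its levels were 9.67, 25.8 and 28.5 CPM, at 12 months 3.40, 2.32 and 3.34 CPM, and at 24 months 2.57, 2.95 and 4.84 CPM. A2 and A3 were alike here, and A1, the lowest of the young libraries, was still above all older ones. The log2 fold changes were -2.79 ± 0.492 and -2.53 ± 0.552 (SE, n = 3 per group), with edgeR adjusted p of 0.0143 and 0.0181. Without A2 they were -2.67 and -2.37, both called.

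*ITGAE* showed the largest fitted fold change of the set. It encodes alpha-E, which marks T cells lodged in epithelium as well as part of the thymocytes and dendritic cells. Young libraries held 56.7, 207 and 32.3 CPM of it. The 12-month libraries held 0.705, 0.718 and 0.924 CPM and the 24-month libraries 0.818, 0.624 and 1.34 CPM, so the ages lay far apart. In older goats this rested on 12.7 to 26.0 expected counts per library, above the 3 counts taken as the detection floor, which equal 0.146 to 0.189 CPM. The log2 fold change was -6.97 ± 0.902 (SE, n = 3 per group) at 12 months and -6.67 ± 0.889 at 24 months, with edgeR adjusted p of 0.00804 and 0.00436. Without A2 it was -5.82 and -5.48, both called.

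*ITGB7* encodes the beta chain of *ITGAE* and a partner of *ITGA4*. Its mRNA was at 22.6, 85.5 and 26.9 CPM in the young goats, at 2.32, 2.82 and 3.52 CPM at 12 months, and at 1.75, 3.91 and 4.68 CPM at 24 months. A2 was high, A1 and A3 were close to each other, and the older groups overlapped. The log2 fold changes were -3.96 ± 0.646 and -3.62 ± 0.704 (SE, n = 3 per group), with edgeR adjusted p of 0.0124 and 0.0129. Without A2 they were -3.11 and -2.74, both called.

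*ITGA4* encodes alpha-4, which carries lymphocytes and monocytes into tissue and is present on early blood cell precursors. A1, A2 and A3 held 118, 83.3 and 197 CPM of its mRNA, the 12-month goats 16.1, 16.0 and 15.3 CPM, and the 24-month goats 14.2, 6.58 and 11.2 CPM. It was the only member whose lowest young value lay in A2, and the only one whose 24-month libraries all lay below the 12-month ones. The log2 fold changes were -3.02 ± 0.360 and -3.54 ± 0.486 (SE, n = 3 per group), with edgeR adjusted p of 0.00678 and 0.00498. Without A2 they were -3.33 and -3.79, both called.

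*ICAM1* encodes the ligand of alpha-L beta-2 and alpha-M beta-2, and is made by endothelium, epithelium and leukocytes alike. Levels at 1 month were 23.4, 45.8 and 52.5 CPM, against 10.6, 8.67 and 7.22 CPM at 12 months, and 8.12, 9.02 and 23.1 CPM at 24 months. C3 lay just under A1, and the other older libraries were well below. The log2 fold change was -2.17 ± 0.386 (SE, n = 3 per group) at 12 months with an edgeR adjusted p of 0.0147, and -1.50 ± 0.543 at 24 months with 0.0887, not called. The 12-month value was just past the threshold and fell inside it, at -1.98, without A3. It also did so, at -1.81, when 2 new transcripts were added whose table symbol reads *ICAM1* but whose stated product is intercellular adhesion molecule 5.

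**Figure D2:**
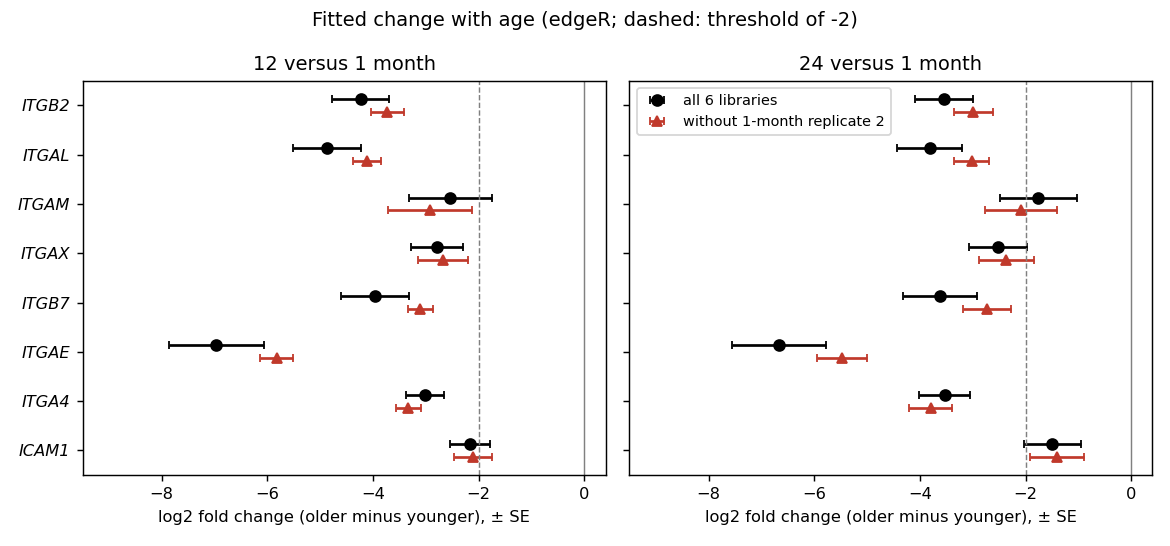
Fitted log2 fold change of each member with its standard error, for 12 against 1 month and 24 against 1 month, with all 6 libraries (circles) and without A2 (triangles). Every value is below 0, ITGAE lies farthest from it and ICAM1 nearest to it in both panels, with and without A2.

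All 8 members had groups A and B fully apart, where 26.6% of tested genes were lower without overlap, and 7 of 8 had groups A and C apart, where 23.2% were. *ITGAM* was the exception at 24 months. The summed level of the 8 genes was 457, 1276 and 751 CPM in the young goats, 49.1 to 58.5 CPM at 12 months and 60.8 to 91.1 CPM at 24 months.

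Between 12 and 24 months no member was called by edgeR's quasi-likelihood test, nor was any of the 14119 genes tested (0% called). An unadjusted p under 0.05 was reached by 2 members and 1633 genes. The Wald test of DESeq2 called 0 members and 12 genes (0.0691%), and the exact test of edgeR 0 members and 14 genes (0.0992%). The 2 members were *ITGAL*, with a log2 fold change of 1.04 ± 0.269 (SE, n = 3 per group), and *ITGB2*, with 0.67 ± 0.253, both at an edgeR adjusted p of 0.417. Their 24-month libraries all lay above the 12-month ones, as they did for 7.83% of tested genes, and those of *ITGA4* all lay below, as for 7.65%, with a log2 fold change of -0.52 ± 0.306. Without C1 the edgeR adjusted p fell to 0.0163 for *ITGAL*, 0.0367 for *ITGB2* and 0.0488 for *ITGA4*, still inside the fold threshold. In that fit 4788 of 14383 genes had an adjusted p under 0.05, so members passed about as often as genes in general. For the other 5 members the older groups overlapped.

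The members did not share their highest library. *ITGB2*, *ITGAL*, *ITGB7* and *ITGAE* were highest in A2, whereas *ITGAM*, *ITGAX*, *ITGA4* and *ICAM1* were highest in A3. Of the 1431 genes called lower at 12 months, 70.4% were highest in A2, 20.5% in A3 and 9.15% in A1. A2 also had the highest sums of T cell and thymic epithelium markers. A3 had the highest macrophage sum, at 2010 CPM against 557 in A1 and 637 in A2, and the highest neutrophil sum, at 1055 CPM against 17.3 and 56.4, with the granule enzyme *MPO* at 299 CPM there and at 1.63 and 15.0 CPM in A1 and A2. Among older libraries the neutrophil sum was 306 CPM in B1 and 188 CPM in C3, and 8.62 to 15.2 CPM in the rest. *LTF*, a gene of that list, had 5402 and 3582 expected counts in B1 and C3, beside 6177 in A3. Salivary epithelium markers summed to 1949, 552 and 1300 CPM in A1, A2 and A3 and to 4216 or more in older goats. The part of this changing cell content in the members' levels was not tested.

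**Figure D3:**
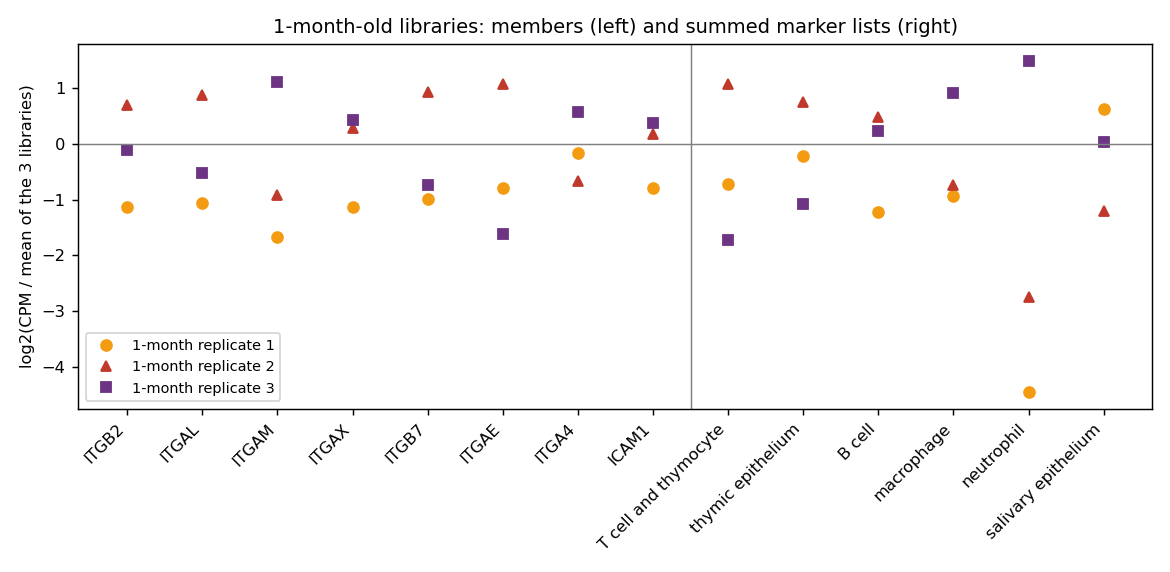
The 3 libraries of group A, for the members (left) and for summed marker lists (right), as log2 of CPM over the mean of the 3. Triangles (A2) lie on top for ITGB2, ITGAL, ITGB7, ITGAE and the T cell and thymic epithelium lists, and squares (A3) for ITGAM, ITGAX, ITGA4, ICAM1 and the macrophage and neutrophil lists.

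The chains of a receptor were next compared with each other at the mRNA level. For each library the log2 ratio of 2 genes' counts was taken and compared by a two-sided exact permutation test, for which 3 libraries against 3 cannot give a p below 0.1. Of 13 ratios, 7 did not overlap between 1 and 12 months and 8 between 1 and 24 months. As a background, the levels of single genes were apart for 26.6% lower and 27.3% higher at 12 months and for 23.2% lower and 20.7% higher at 24 months, so the number of ratios apart is not in itself a result. The *ITGAE* to *ITGB7* log2 ratio was 1.33, 1.28 and 0.26 at 1 month, -1.68, -1.93 and -1.90 at 12 months, and -1.07, -2.60 and -1.79 at 24 months. It differed by -2.79 at 12 months and -2.78 at 24 months, each at the smallest exact permutation p of 0.1, or 0.186 and 0.163 after adjustment over the 13 ratios. Without A2 the differences were -2.63 and -2.62, again with no overlap. *ITGAE* mRNA was thus reduced more than that of its beta chain.

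The *ITGA4* to *ITGB7* ratio, by contrast, overlapped between ages and differed by 0.72 and -0.07 on the log2 scale, with exact permutation p of 0.7 and 1. A2 stood apart there, with a log2 ratio of -0.04 beside 2.39 and 2.87 in A1 and A3. Without it the differences were -0.17 and -0.96. Against *ITGB1*, the other partner of alpha-4, *ITGA4* was lower by -3.36 and -3.40 with no overlap (exact permutation p = 0.1), since *ITGB1* itself had log2 fold changes of 0.35 and -0.14 and was not called.

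Among the beta-2 partners, *ITGAL* kept closest to *ITGB2*, with ratio differences of -0.60 and -0.21 that overlapped (exact permutation p of 0.2 and 0.4). The *ITGAX* to *ITGB2* log2 ratio was -2.96, -3.37 and -2.43 at 1 month, then -1.44, -1.91 and -1.25 at 12 months and -2.32, -2.08 and -1.61 at 24 months. These differences of 1.38 and 0.92 had no overlap, at an exact permutation p of 0.1, and were 1.16 and 0.69 without A2. For *ITGAM* the differences were 1.85 and 1.95 with overlap, at an exact permutation p of 0.2. Within the beta-2 family, *ITGAX* relative to *ITGB2* mRNA was thus higher in the older libraries measured. The exact permutation p adjusted over the 13 ratios was 0.186 and 0.163. *ITGAL* relative to *ITGB2* did not separate the ages.

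*PTPRC* encodes CD45, the surface phosphatase of nearly all leukocytes, and was used as a measure of leukocyte mRNA. It was at 237, 517 and 300 CPM in A1 to A3, 13.1 to 14.5 CPM at 12 months and 15.4 to 16.9 CPM at 24 months, with log2 fold changes of -4.67 and -4.35, both called. Relative to it, *ITGAE* was the only member lower in older goats at both ages without overlap, by -1.88 and -1.96. *ITGB2*, *ITGAX* and *ICAM1* were higher relative to *PTPRC* at both ages without overlap, by 0.55 and 0.92, by 1.93 and 1.83, and by 2.48 and 2.67. *ITGA4* was so at 12 months only, by 1.63, and *ITGAL* and *ITGAM* at 24 months only, by 0.70 and 2.87. *ITGB7* overlapped at both ages, but without A2 its ratio was higher in older goats, by 1.19 and 1.09, with no overlap. Without A2 the differences for *ITGAE* were -1.44 and -1.52. With A2 included, each separation without overlap had an exact permutation p of 0.1, the smallest possible, and none passed adjustment. No p was computed for the ratios without A2.

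The members were also set against the mean log2 count of 7 pan-leukocyte genes, *PTPRC* among them, in place of *PTPRC* alone. That choice kept the direction for *ITGAE* (-2.45 and -2.32), *ITGAX* (1.36 and 1.48) and *ICAM1* (1.91 and 2.32), all without overlap. It did not keep the result for *ITGB2* at 12 months, where the difference became -0.02 with overlap. For *ITGAL* at 12 months it gave -0.62 without overlap, against -0.05 with overlap over *PTPRC*. At 24 months the *ITGAL* difference became 0.35 with overlap (exact permutation p = 0.3), so its separation over *PTPRC* was lost there.

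**Figure D4:**
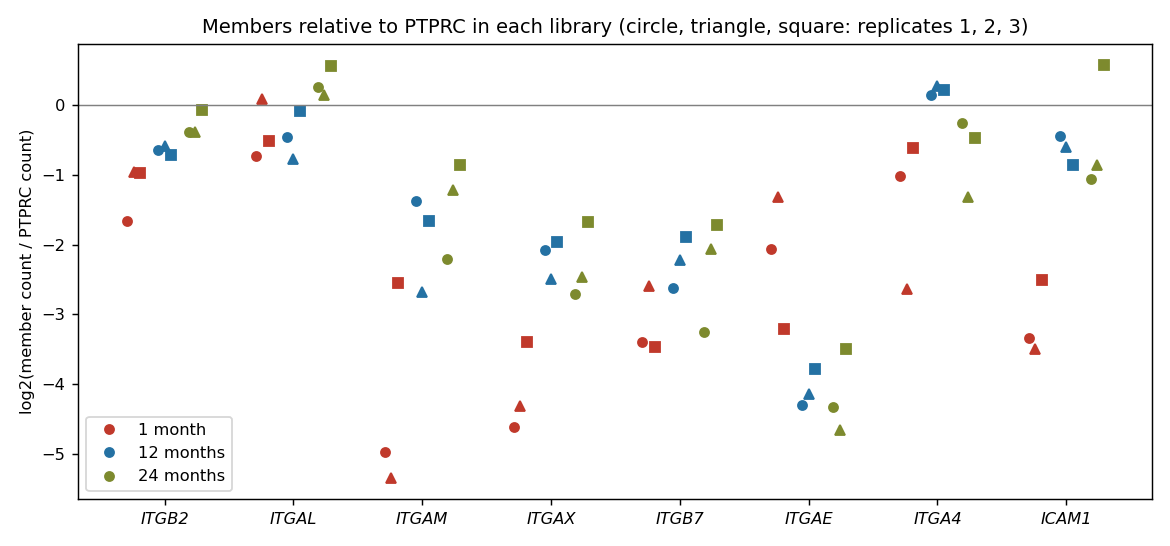
Log2 ratio of each member's count to the PTPRC count in every library, with 1-month libraries in red, 12-month in blue and 24-month in green. ITGAE lies lower in the older goats, ITGAX and ICAM1 lie higher, and the ITGB7 libraries of the 3 ages overlap.

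Several members were counted as more than 1 transcript, and the share of reads given to each transcript varied between libraries of the same age. For *ITGB7*, transcript XM_018047684.1 held 91.4% of counts at 1 month, 15.1% at 12 months and 57.0% at 24 months. The other, XM_018047683.1, annotated as isoform X1, was estimated at 57.2, 91.5 and 63.0 counts in the young libraries, 41.7, 41.9 and 50.7 in B1 to B3 and 30.7, 12.9 and 44.0 in C1 to C3. Tested on its own it had log2 fold changes of -0.71 ± 0.519 and -1.37 ± 0.790 (SE, n = 3 per group), with edgeR adjusted p of 0.470 and 0.390 over all transcripts. The high young level of *ITGB7* was thus assigned almost wholly to 1 of its 2 transcripts.

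For *ITGAE*, XM_013972207.2 held 99.5% of counts in group A and 0 in group B, where all reads went to XM_013972206.2 at 12.7, 13.1 and 17.2 expected counts. In group C, XM_013972207.2 held all counts in C1 and C3 and none in C2. *ITGAX* was split among 3 transcripts, with XM_018040559.1 at 81.6% in young goats, 28.7% at 12 months and 46.0% at 24 months, and the share moved between libraries of the same age. *ITGB2* kept its main transcript, XM_018047976.1, at 64.4%, 65.8% and 54.6%. *ITGAL*, *ITGA4*, *ITGAM* and *ICAM1* each had 1 transcript with at least 74.0% of counts in every group. These shares are the program's division of reads between overlapping transcripts and are uncertain.

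**Figure D5:**
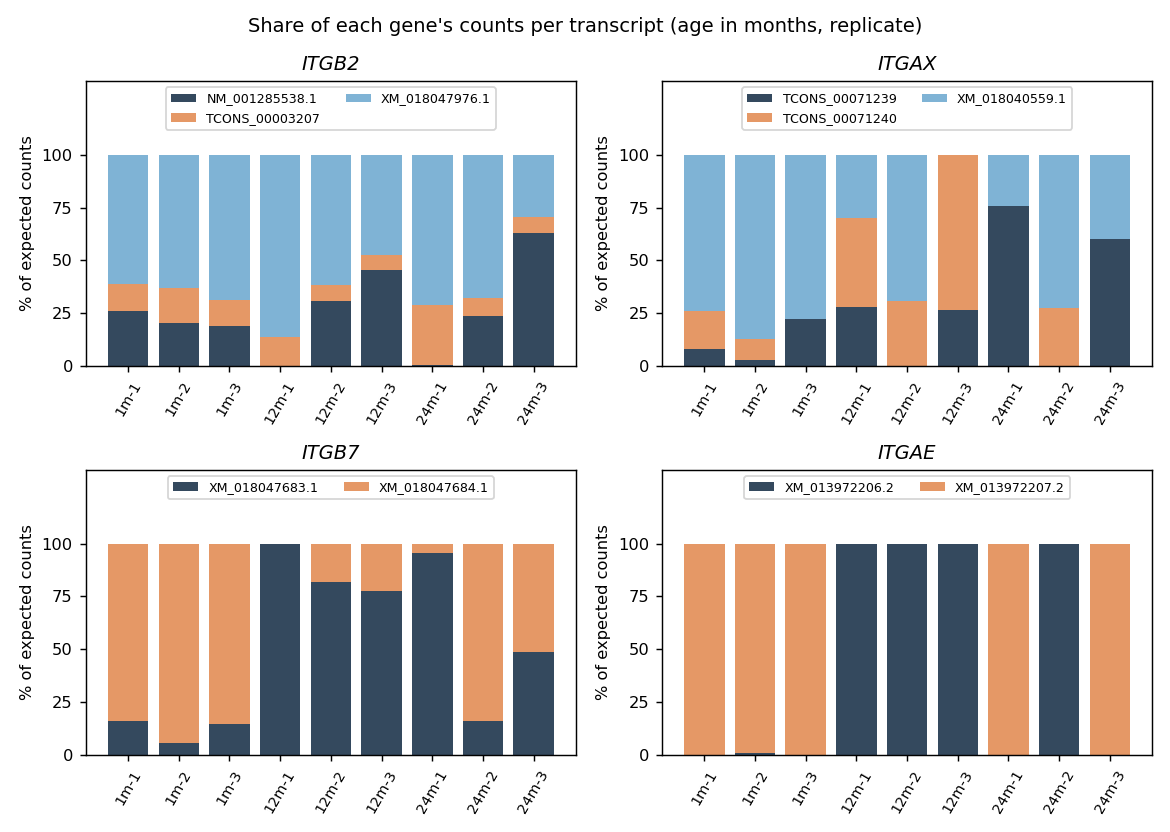
Percent of each gene's expected counts given to each of its transcripts, per library, labelled by age in months and replicate. ITGAE is wholly 1 transcript in each older library, the same one in all 12-month libraries but not in all 24-month ones. ITGB7 is mostly 1 transcript at 1 month and mostly the other at 12 months.

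By gene order in the RefSeq annotation of goat, *ITGAM* and *ITGAX* are next to each other on chromosome 25 and are followed there by the alpha-D gene, with *ITGAL* on the same chromosome. *ICAM1* lies next to *ICAM4* on chromosome 7. The other members lie on chromosomes 1 (*ITGB2*), 5 (*ITGB7*), 19 (*ITGAE*) and 2 (*ITGA4*). The neighbours *ITGAM* and *ITGAX* were highest in the same young library, and their levels correlated at r = 0.862 over the 9 libraries, which was the lowest correlation of *ITGAX* with any member.

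Correlations of log2(CPM + 1) over the 9 libraries describe likeness, and the age difference that the libraries share enters all of them. The closest members were *ITGB2* and *ITGAL* at r = 0.991, and *ITGAM* had the lowest values, from 0.619 with *ITGAE* to 0.862 with *ITGAX*. Among 12697 other genes, the most alike to *ITGB2* were *HCLS1* (r = 0.995), *GSDMD* and *NEURL3*, and to *ITGAL* they were *TMEM86B* (0.995), *CORO1A* and *DENND1C*. *ITGAE* was most like *GRAP2* (0.999), *INSRR* and the T cell receptor gene *TRBC2*, and *ITGB7* was most like *IL16* (0.996), *PARVG* and *CNN2*. *ITGAM* was most like *C3H1orf162* (0.974), the macrophage growth factor receptor gene *CSF1R* (0.969) and *UBA7*, and *ITGAX* was most like *TNFRSF1B* (0.994), *NFE2* and *PREX1*. *ITGA4* was most like *EVI2A* (0.993), *RERG* and *KCNA3*, and *ICAM1* was most like *RFTN1* (0.976), *TGFBI* and *SLCO4A1*.

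The ligands of these receptors did not all fall. For this list and those that follow, 9.73% and 9.46% of all genes tested were called lower at 12 and 24 months, and 2.22% and 4.39% higher. Without A2 these shares were 10.5% and 10.3% lower, and 2.13% and 4.53% higher. Of 10 ligand genes listed, 7 were found by name and 5 were tested, of which *MADCAM1* and *ICAM3* were called lower at both ages and none was called higher. *MADCAM1*, the addressin bound by alpha-4 beta-7, was at 1.41, 2.29 and 3.57 CPM in group A and at 0 in 4 of the 6 older libraries, with 0.176 CPM in B3 and 0.170 CPM in C2, which is near the detection floor. *ICAM3*, made by leukocytes themselves, was at 24.2, 88.3 and 24.9 CPM in group A and at 1.10 to 7.36 CPM in older goats, with log2 fold changes of -4.65 and -3.12. *CDH1*, the E-cadherin bound by alpha-E beta-7, was at 220, 214 and 157 CPM in group A and at 364 to 520 CPM later, with log2 fold changes of 1.26 and 1.32 that stayed inside the fold threshold. *ICAM4* was at 0 in all 9 libraries, and *VCAM1*, *ICAM2* and *JAM3* were not analysed here.

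For vessel selectins and genes of selectin ligands, 8 of 11 listed genes were tested, and 2 were called lower and 1 higher at both ages. The lower ones were *B3GNT3* (-3.90 and -3.64), an enzyme that extends sugar chains on selectin ligands, and *SELPLG* (-2.92 and -2.44), the P-selectin ligand on leukocytes. The higher one was *CHST4* (4.52 and 3.65), a sulfotransferase that acts on such chains, at 0.890, 0.0695 and 1.24 CPM in group A and 3.55 to 31.6 CPM later. The vessel selectin *SELP* had log2 fold changes of -1.39 and -0.91 with edgeR adjusted p of 0.0887 and 0.219, and *SELE* stayed at 0.590 CPM or less and was not tested. Without A2, 2 and 1 genes of this list were called lower and 1 higher at each age.

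Of 19 other integrin genes, most did not follow the leukocyte set, and their median log2 fold changes were 0.25 and 0.04. At 12 months 2 were called lower, *ITGAD* (-2.92), the remaining beta-2 partner, and *ITGB3* (-2.51), a beta chain of platelets and other cells. At 24 months *ITGB3* (-2.27) and *ITGA2B* (-2.23), the platelet alpha chain, were called lower and *ITGB5* (2.13), a widely expressed beta chain, higher. These counts out of 19 were near the shares over all genes and are not in themselves a result. Without A2, 3 of 19 were called lower at 12 months and 1 at 24 months, and none higher.

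Many genes listed for the control of integrin binding fell at the same ages. The list mixes activators, inhibitors and general leukocyte genes, so its counts do not measure activation. Of its 22 genes, 13 were called lower at 12 months and 12 at 24 months, none higher, with medians of -2.80 and -2.54. Those with the largest fall were *SKAP1* (-6.22 and -5.30) and *FYB1* (-5.94 and -5.66), partner adaptors that carry the T cell receptor signal to integrins, *CORO1A* (-5.99 and -5.11), an actin regulator of leukocytes, and *APBB1IP* (-5.54 and -5.70), which links RAP1 to talin. Without A2 the counts were 11 and 11. *RAP1A*, *RAP1B* and the talin gene *TLN1*, also listed, changed less than these. Their means were 39.5, 80.3 and 903 CPM in group A, 30.6, 62.0 and 342 in B, and 24.2, 44.7 and 547 in C. Of 14 genes for crossing the vessel wall, 3 were called lower at each age, with list medians of -1.32 and -0.93. They were the chemokine receptor *CXCR4* (-5.67 and -4.92), the matrix protease *MMP9* (-5.67 and -5.81) and the leukocyte GTPase *RHOH* (-2.94 and -3.64). Without A2, 3 and 4 of these 14 were called lower.

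Marker lists of the cells that carry these receptors were read the same way. All 7 pan-leukocyte genes and all 11 T cell and thymocyte genes were called lower at both ages, with medians of -4.42 and -3.91 and of -7.97 and -6.84. For B cells 6 of 8 were called lower at each age (medians -4.39 and -4.14), and for thymic epithelium 5 of 7 (-6.55 and -5.94). Macrophage genes were called lower in 5 and 6 of 10 (-2.35 and -2.14), dendritic cell genes in 5 and 3 of 6 (-3.68 and -3.26), neutrophil genes in 3 and 4 of 7 (-4.99 and -5.74), and cytotoxic cell genes in 3 of 7 and 0 of 6 (-2.93 and -1.40). No plasma cell gene of 7 was called in either direction (medians 1.30 and 1.56), nor any endothelial gene of 8 (-0.48 and 0.09). Of 10 salivary epithelium genes, 0 were called at 12 months and 2 were called higher at 24 months (1.98 and 1.92). Without A2 the lower calls were 8 and 8 of 10 for macrophages, 6 and 6 of 7 for neutrophils, 6 and 5 of 7 for dendritic cells, 5 and 1 of 7 for cytotoxic cells, 6 and 5 of 8 for B cells and 4 and 4 of 7 for thymic epithelium. They were still 7 of 7 and 11 of 11 for the pan-leukocyte and T cell lists, and 2 plasma cell genes at 12 months and 3 salivary epithelium genes at 24 months were called higher. These cell markers moved at the same ages as the members, and their part in the members' levels was not tested.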

How the data were processed

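The authors removed ribosomal reads with Bowtie2 2.2.8, aligned the rest to a goat genome with TopHat2 2.1.1 (the build is not given in the sources used here), assembled new transcripts with Cufflinks and estimated abundance per transcript with RSEM. The deposited table holds expected counts, not normalized, for 42686 known and 10053 new transcripts in 9 libraries. Of the known identifiers, 99.9% matched RefSeq gene names, and the order of genes on chromosomes was taken from the same annotation. New transcripts were given to the gene of the protein named in their description, otherwise to their symbol, because the 2 differed for 869. Expected counts were summed per gene and rounded, filtered with filterByExpr, scaled by TMM and tested with edgeR 4.0.16 (quasi-likelihood) for each pair of ages, with SE as the log2 fold change over the root of F. The FPKM filter of the study could not be applied. On simulated data for 12 against 1 month (14702 genes), 75 of 100 genes with a log2 change of 3 and 99 of 99 with 5 were called. Of the unchanged genes, 10 were called (0.0700%). The simulation had the same spread at both ages and no library set apart like A2, so these shares do not give the power here. For ratios 0.5 counts were added. A count of 3 equals 0.146 to 0.189 CPM by library, which covers counting error only. Each library is a separate goat.

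Members and lists were chosen with earlier results of these data known. Genes named were all members, *PTPRC*, up to 3 called genes with the largest change per pathway list, direction and age, chosen ligands and selectins, transcripts with at least 10% of a member's counts in a group, and the 3 genes most correlated with each member. A further gene is not reported here. *RAG1*, *FOXN1*, *AQP5*, *BHLHA15*, *MPO*, *LTF*, *ITGB1*, *RAP1A*, *RAP1B*, *TLN1* and the other salivary epithelium markers were named after their values were seen. Alternatives were DESeq2 1.42.0, edgeR's exact test, other scaling, no filter, a replicate block, all libraries in 1 fit, single transcripts, and leaving out each library. Assigning new transcripts by symbol alone was added after seeing the data.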

Additional observations from a re-analysis of the deposited data

How the results depend on the processing

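All 112 alternative log2 fold changes of the members were below 0 for 12 against 1 month (-7.40 to -1.37), and so were all 112 for 24 against 1 month (-7.09 to -0.59). The number of members called at 12 months, 7, ranged from 0 to 8 when 1 library was left out, and was 4 with transcripts tested singly. At 24 months, 6, it ranged from 2 to 7, and was 3 with transcripts tested singly. *ITGAM* was called at 12 months by the DESeq2 and exact tests, with adjusted p of 0.00414 and 0.0101. With the replicate number as a block, 6 members were called at each age (5.99% and 8.69% of all genes called lower), *ICAM1* at 12 months no longer (adjusted p of 0.0601), and no other member's call changed. Same-numbered libraries correlated in their deviations from the group mean between -0.236 and 0.427. With 3 libraries per group, these values cannot tell whether a shared number marks a pairing or a batch. Without TMM, on library totals, the median gene shifts by -0.45 at 12 months and -0.60 at 24 months, and upper-quartile scaling moved the median log2 fold change at 24 months from -0.01 to -0.12. Ratios that did not overlap numbered 7 to 10 of 13 at either age under the alternatives tried. *MADCAM1* was too near the detection floor in older goats for a fold.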
